A study of Arabidopsis thaliana with 97 samples.

Results

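The genes described here are the 5 ethylene receptors of Arabidopsis thaliana and the core of the pathway behind them. They were chosen by name as 10 sense loci of 27878 in the deposited count files. They comprise the receptors ETR1 (AT1G66340), ERS1 (AT2G40940), ETR2 (AT3G23150), EIN4 (AT3G04580) and ERS2 (AT1G04310), the kinase CTR1 (AT5G03730), the membrane protein EIN2 (AT5G03280), the transcription factor EIN3 (AT3G20770), and the F-box proteins EBF1 (AT2G25490) and EBF2 (AT5G25350). Leaf discs from plants 5 weeks old received either water, for 8 min, or the flagellin peptide flg22 at 100 nM, for 8, 15, 30, 45, 60, 120 or 180 min. The plants were the wild type Col-0 and the mutants npr1-1, impaired in salicylic acid responses, jar1-1, impaired in jasmonate conjugation, and ein2-5, impaired in EIN2 itself. Each of the 32 groups of genotype and condition had 3 libraries, 96 in all. The only water control was taken at 8 min, so an effect of flg22 at a later time cannot be told apart from that of the time spent in solution. No sequencing lane held 2 genotypes, so a genotype and its lanes cannot be told apart either.

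Ethylene is a gaseous hormone. Without it the receptors, which sit in the endoplasmic reticulum, keep CTR1 active, and CTR1 phosphorylates EIN2 and holds it in check. With ethylene bound, the receptors and CTR1 fall silent, part of EIN2 moves to the nucleus, and EIN3 and its relative EIL1 accumulate there and switch on target genes. EBF1 and EBF2 are the F-box subunits that mark EIN3 and EIL1 for degradation. ETR2, ERS1, ERS2 and EBF2 are themselves known as ethylene-induced genes in this plant, and EIN2 is also needed for normal responses to flg22.

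The stretches just before 4 of the genes are shown because ERS1, ETR2, ERS2 and EBF2 were the members with the lowest levels in ein2-5 relative to Col-0, as described below. Each is the 250 bases before the annotated gene start in the RefSeq annotation of TAIR10.1, read 5′ to 3′ on the strand of the gene. Capitals mark ATGTAT or ATGTAC on either strand, 2 hexamers that resemble the core of sites known for EIN3-type factors. The windows are chr2:17087327-17087576 on the minus strand for ERS1, chr3:8254309-8254558 on the plus strand for ETR2, chr1:1157814-1158063 on the minus strand for ERS2 and chr5:8797350-8797599 on the minus strand for EBF2.
ERS1: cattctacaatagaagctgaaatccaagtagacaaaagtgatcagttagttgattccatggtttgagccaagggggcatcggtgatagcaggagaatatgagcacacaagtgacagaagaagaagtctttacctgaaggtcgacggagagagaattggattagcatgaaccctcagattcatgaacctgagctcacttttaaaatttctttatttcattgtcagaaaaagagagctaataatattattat
ETR2: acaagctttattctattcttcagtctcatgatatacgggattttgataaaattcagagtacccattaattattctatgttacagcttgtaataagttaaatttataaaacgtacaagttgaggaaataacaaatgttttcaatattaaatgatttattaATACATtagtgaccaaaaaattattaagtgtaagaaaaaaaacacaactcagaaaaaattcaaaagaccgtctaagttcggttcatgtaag
ERS2: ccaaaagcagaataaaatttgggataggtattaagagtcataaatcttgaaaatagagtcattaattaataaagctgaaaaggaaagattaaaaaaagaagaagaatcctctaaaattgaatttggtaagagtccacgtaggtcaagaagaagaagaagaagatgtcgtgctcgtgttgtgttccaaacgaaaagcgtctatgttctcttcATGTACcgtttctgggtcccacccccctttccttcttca
EBF2: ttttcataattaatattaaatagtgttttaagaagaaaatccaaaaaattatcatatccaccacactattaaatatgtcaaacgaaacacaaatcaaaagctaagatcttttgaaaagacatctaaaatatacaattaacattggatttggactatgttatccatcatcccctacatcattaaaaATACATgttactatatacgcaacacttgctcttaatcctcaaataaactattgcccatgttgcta
ETR2 and EBF2 each held ATGTAT once, ERS2 held ATGTAC once, and the ERS1 window held neither. ATGTAT was in 4 of the 10 members' windows and in 23.5% of the windows of 27443 protein-coding genes. ATGTAC was in 1 member, against 9.52% of all windows. The sequence TTGAC, the core recognised by WRKY factors, was in 5 of 10 against 44.9%, and GCCGCC, the box bound by ERF factors, was in none of the 10 against 1.87%. On the other strand ATGTAT reads ATACAT and ATGTAC reads GTACAT, and no 2 hexamers overlapped in these 4 windows. These matches describe letters and not bound sites.

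Levels are given in TPM, the tags of a gene for each 1e+06 tags of a library after scaling, and because the method gives 1 tag for each transcript near its 3′ end, levels of different genes can be compared without scaling by length. Values after ± are SDs over 3 libraries unless an SE is named. The libraries held 388494 to 2415097 tags, with a median of 1376558.5. All 10 members passed the filter on low counts. A gene was called where edgeR's quasi-likelihood test gave an adjusted p, over all 16816 sense and antisense features, under 0.01. Of the 4 leaf mesophyll markers, RBCS1A, the small subunit of Rubisco, was high throughout, at 2343 to 15809 TPM. The other photosynthesis genes varied more, with RCA at 95.9 to 3635 TPM, LHCB1.3 at 60.6 to 8599 TPM and LHCB2.1 at 1.96 to 1064 TPM. Among 12 marker genes for cell types and senescence, the senescence protease SAG12 was at 0 in 95 libraries and the epidermal gene PDF1 in 94. PYK10, a glucosidase best known from roots, had a median of 10.8 TPM in ein2-5 and 0.668 TPM in Col-0. In bulk leaf discs, fewer cells of a type and less RNA per cell cannot be told apart.

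In Col-0 leaf discs in water the 2 most abundant members were EIN3, at 172 ± 18.0 TPM, and EBF2, at 165 ± 25.4 TPM, and their libraries overlapped. EBF1 followed at 69.9 ± 8.00 TPM, below both in every library, and CTR1 at 44.6 ± 10.9 TPM. The most abundant receptor was ERS1, at 28.4 ± 4.73 TPM, and its libraries overlapped with those of CTR1 above it and of EIN2, at 19.7 ± 7.30 TPM, below it. EIN4 stood at 10.3 ± 3.5 TPM, ETR1 at 8.10 ± 4.91 TPM and ETR2 at 8.06 ± 1.89 TPM, and these 3 did not differ beyond their spread. ERS2 was the lowest at 3.02 ± 1.43 TPM, with 15 tags over the 3 libraries. The 5 receptors together made up 57.9 ± 10.4 TPM, of which ETR1 and ERS1, the 2 with a conserved histidine kinase domain, took 62.5 ± 4.84%. Depth limits ETR2 and ERS2 most, since they had 536 and 462 tags over all 96 libraries, against 26396.3 for EIN3.

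The mutated gene was checked first. EIN2 measured 23.3, 24.5 and 11.3 TPM in the 3 Col-0 libraries in water, and 7.15, 6.31 and 2.34 TPM in ein2-5. The groups did not overlap, and the log2 difference was -1.92 ± 0.42 (SE, adjusted p = 0.000645). Over the 7 flg22 times the difference was called as well (adjusted p = 5.29e-08). Taken singly, only 2 of 8 conditions were called, water and 8 min of flg22 (the latter lost in 2 alternative fits). In 7 of 8 conditions every ein2-5 library lay below every Col-0 library. The transcript was therefore lower but present, with 136 tags in the 24 ein2-5 libraries and 400 in the 24 of Col-0. A tag near the 3′ end does not test a lesion elsewhere in the gene. The call in water was lost when replicate 2 or replicate 3 was left out, where the highest adjusted p was 0.0255.

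In water, 4 of the 10 members were called in ein2-5 against Col-0, all lower: ERS1, ETR2, EIN2 and EBF2. Of all sense genes, 7.35% were called in this comparison. Over the flg22 times 7 members were called, against 17.2% of all sense genes, and ERS2, CTR1 and EBF1 joined those 4. ETR1, EIN4 and EIN3 were called in neither, with adjusted p of 0.796, 0.563 and 0.339 over the flg22 times. The median log2 difference in water was -1.33 over the members and 0.05 over all sense genes. The count over the flg22 times was 7 in every alternative fit, and that in water was 3 without replicate 2 and 3 without replicate 3. Of the 12 markers, 10 were tested and 1 was called in ein2-5 in water, PYK10 (18.6 against 0.828 TPM, adjusted p = 0.00241, lost without any 1 of the replicates). Over the flg22 times PYK10 and EXT3 were both called (adjusted p = 4.82e-08 and 0.00385, the latter lost without replicate 1 or 2). PYK10 and EXT3, listed as root markers, summed to 538 to 871 TPM in ein2-5 in water and to 165 to 417 TPM in Col-0. With PYK10 at 18.6 and 0.828 TPM, nearly all of this sum was EXT3. EXT3 had tags in every leaf disc library, so the sum cannot be read as a measure of root cells. The part of PYK10 and EXT3 in the differences was not tested.

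The receptors that were low in ein2-5 were ERS1, ETR2 and ERS2, while ETR1 and EIN4 were called in no condition. ERS1 measured 3.25, 4.91 and 4.10 TPM in the ein2-5 libraries in water and 33.7, 24.5 and 27.1 TPM in Col-0. Its mean was 6.95-fold lower, with a log2 difference of -2.78 ± 0.44 (SE, adjusted p = 1.76e-06). ERS1 was called in all 8 conditions (at 8 and 60 min not without replicate 3, adjusted p = 0.0104 and 0.0111), with log2 differences from -3.49 to -2.54, and no ein2-5 library reached the lowest Col-0 library of the same condition. Over the whole course ERS1 ranged from 0.745 to 9.94 TPM in ein2-5 and from 10.8 to 54.3 TPM in Col-0.

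ETR2 had no tag in any of the 24 ein2-5 libraries, against 146 tags in Col-0, where 23 of 24 libraries held at least 1. In water the Col-0 libraries measured 9.77, 8.37 and 6.03 TPM, which is at least 12.5-fold higher than ein2-5 when the floor is set at 3 tags over the 3 libraries of a group (adjusted p = 3.11e-06). ETR2 was called in 6 of 8 conditions, all but 45 and 60 min, the times at which Col-0 itself held 3 and 8 tags. The ETR2 call at 30 min was lost in 6 alternative fits (highest adjusted p = 0.177), that at 120 min in 3 (0.104), those at 8 and 15 min in 2 each (0.0283 and 0.0337) and that at 180 min in 1 (0.0146), while the call in water held in all. ERS2 had 8 tags in ein2-5, in 8 of 24 libraries, against 129 in Col-0. It was called at 8, 15, 120 and 180 min of flg22, and at 180 min Col-0 measured 8.67, 10.8 and 7.24 TPM where ein2-5 had no tag, at least 12.0-fold lower (adjusted p = 2.29e-05). The ERS2 call at 180 min held in every alternative fit, that at 8 min was lost in 2 (highest adjusted p = 0.252), that at 15 min in 1 (0.035) and that at 120 min in 3 (0.0703). In water ERS2 stood at 3.02 ± 1.43 against 0.195 ± 0.338 TPM and missed the threshold (adjusted p = 0.0127), although it passed under scaling by total tags (adjusted p = 0.0090). The floor covers counting error only.

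ETR1 stood at 13.8 ± 1.96 TPM in ein2-5 and 8.10 ± 4.91 TPM in Col-0 in water, a log2 difference of 0.74 ± 0.41 (SE, adjusted p = 0.286). EIN4 stood at 7.03 ± 1.42 and 10.3 ± 3.5 TPM, a log2 difference of -0.52 ± 0.38 (SE, adjusted p = 0.480). The sum of the 5 receptors in water was 25.1 ± 2.00 TPM in ein2-5 against 57.9 ± 10.4 TPM in Col-0, with no overlap.

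**Figure D1:**
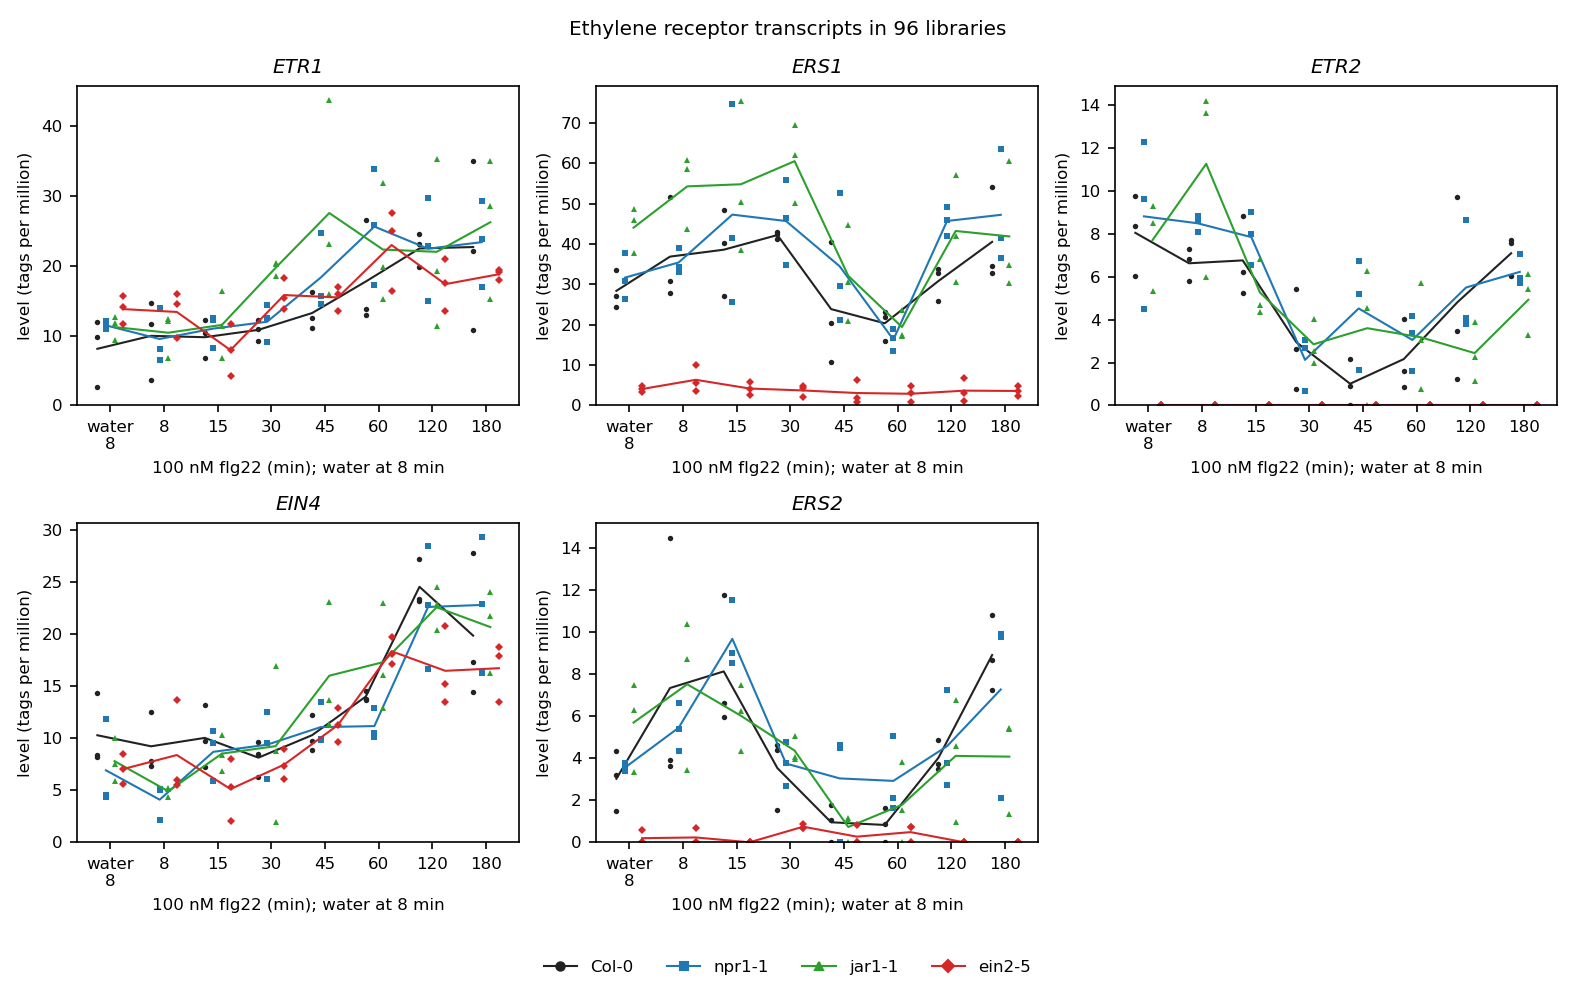
Levels of the 5 ethylene receptors in TPM (y axis) by condition (x axis, time points equally spaced and not to scale); each point is 1 library and each line joins the means of 3 libraries of a genotype. ERS1, ETR2 and ERS2 lie near or at 0 in ein2-5, ETR1 and EIN4 do not, and EIN4 lies higher at 120 and 180 min than in water in all 4 genotypes.

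CTR1, the kinase that represses EIN2, was lower in ein2-5 over the flg22 times (adjusted p = 1.03e-10). At 15 min it measured 42.6, 47.8 and 64.2 TPM in Col-0 and 23.9, 16.9 and 12.5 TPM in ein2-5, a log2 difference of -1.47 ± 0.25 (SE, adjusted p = 2.02e-05; lost without replicate 3, adjusted p = 0.0414). In water the values were 44.6 ± 10.9 and 26.6 ± 3.62 TPM, and the difference missed the threshold (adjusted p = 0.0259). CTR1 was called in only 2 of 8 conditions, 8 and 15 min of flg22, while every ein2-5 library lay below every Col-0 library in 7 of 8. EIN3 transcripts measured 172 ± 18.0 TPM in Col-0 and 166 ± 42.4 TPM in ein2-5 in water, with log2 differences from -0.51 to 0.04 over the 8 conditions, none of them called.

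EBF2 was the member with the largest called difference among those with tags in every library. It measured 191, 139.7 and 163 TPM in the Col-0 libraries in water and 9.75, 18.2 and 5.27 TPM in ein2-5. The mean was 14.8-fold lower, with a log2 difference of -3.90 ± 0.35 (SE, adjusted p = 1.20e-13). EBF2 was called in 7 of 8 conditions, and the exception was 30 min, where the Col-0 libraries had themselves fallen to 10.8 to 17.9 TPM, still above the 1.74 to 8.96 TPM of ein2-5, and the log2 difference was -1.03 ± 0.40 (SE, adjusted p = 0.137). EBF1, the other F-box gene, went the other way. It missed the threshold in water (69.9 ± 8.00 against 85.6 ± 24.3 TPM, log2 difference 0.29 ± 0.27, SE, adjusted p = 0.618), and was higher in ein2-5 at each of the 5 times from 30 to 180 min (at 60 min lost without replicate 1, adjusted p = 0.0139, and at 180 min lost without replicate 1 or 2, adjusted p = 0.0745 and 0.0318). The largest difference was at 45 min, with 36.6, 30.2 and 31.9 TPM in Col-0 and 146, 171 and 104 TPM in ein2-5, a log2 difference of 2.09 ± 0.29 (SE, adjusted p = 5.05e-07).

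**Figure D2:**
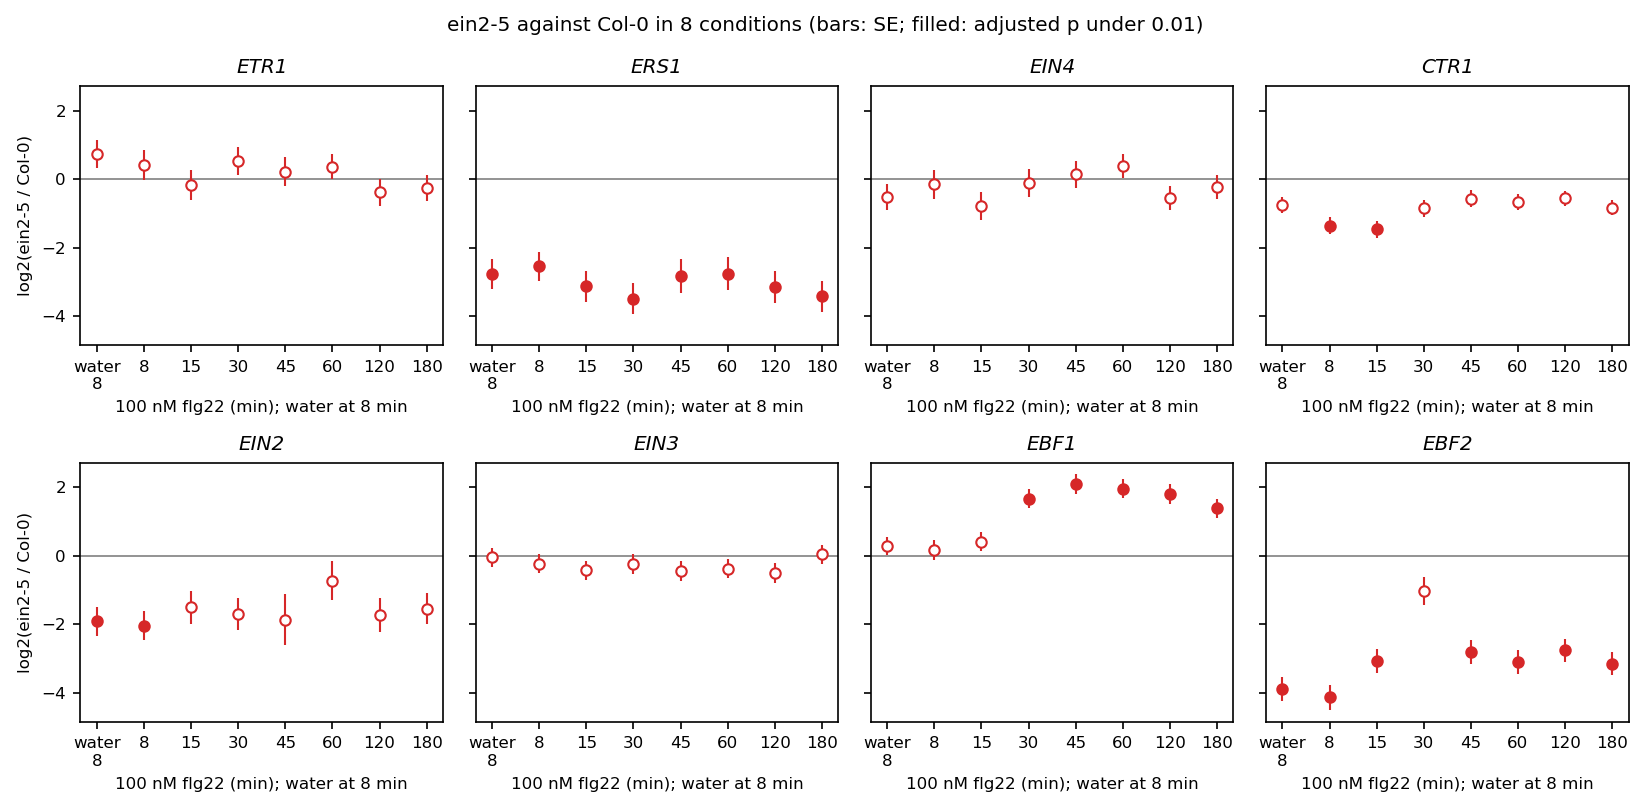
Fitted log2 difference of ein2-5 from Col-0 (y axis) for the 8 members with tags in both genotypes in every condition, by condition (x axis, equally spaced); bars are SEs, n = 3 libraries a group, and filled points passed an adjusted p under 0.01. ERS1 is filled in all 8 conditions between -3.49 and -2.54, EBF2 in all but 30 min, and EBF1 above 0 from 30 to 180 min.

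The mutants npr1-1 and jar1-1 were compared with Col-0 in the same way, and no member was called in either. In npr1-1 the background was 0.0686% of sense genes in water and 0.597% over the flg22 times, and no member had an unadjusted p under 0.05 in either comparison with edgeR. In jar1-1 it was 0.0412% in water and 1.1% over the flg22 times, and 1 member, CTR1, had an unadjusted p under 0.05 in both. At 45 min of flg22, 6 of the 10 members had an unadjusted p under 0.05 in jar1-1, all higher, with a median log2 difference of 0.70 over the members and 0.10 over all sense genes, and at 30 min 3 had, but none was called. At the remaining flg22 times 0 or 1 had. These counts were not set against the share of all sense genes at that unadjusted level. CTR1 measured 72.5, 92.9 and 62.9 TPM in jar1-1 in water against 48.8, 32.2 and 52.7 TPM in Col-0, which did not overlap. Over the flg22 times its adjusted p was 0.0169, against 0.00561 with the replicate number as a block and 0.00628 with DESeq2, so it passed in these 2 fits. DESeq2 called no member in npr1-1.

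Under flg22, 8 of the 10 members were called in Col-0 over the 7 times, where 58.5% of all sense genes were called. ERS1 (adjusted p = 0.0770) and EIN3 (adjusted p = 0.200) were not, although EIN3 passed with the lane block, as given below. In npr1-1 the count was 7 against a background of 60.5%, in jar1-1 9 against 63.6%, and in ein2-5 3 (EIN4, CTR1 and EBF1) against 50.1%. No test compared these shares with the background. The Col-0 count fell to 4, 3 and 4 when replicates 1, 2 and 3 were left out. In jar1-1 it fell to 4, 6 and 6, and in ein2-5 to 2, 1 and 2. The ein2-5 count was also 2 without its shallowest library, replicate 3 at 15 min with 388494 tags, where EBF1 missed the threshold (adjusted p = 0.0128). A second limit is the general shift: the median log2 change of all sense genes in Col-0 was -0.33 at 60 min, and -0.60 under scaling by total tags.

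In Col-0 the members moved at set times. At 8 min no member was called (1.27% of sense genes; CTR1 alone was under 0.05 before adjustment, and none passed with DESeq2), and at 15 min again none (13.2%; ERS2 and EIN3 were under 0.05 before adjustment, none passed with DESeq2, and EIN3 passed with the lane block). At 30 min EBF1 and EBF2 were called, both lower (18.7%). At 45 min ETR2, EIN2 and EBF1 were called, all lower (31.4%), and at 60 min the same 3 were, again lower (38.9%). At 120 min ETR1, EIN4 and CTR1 were higher and EBF1 lower (37.3%), and at 180 min ETR1 was higher (34.8%). With the lane block ETR1 at 60 min (log2 change 1.12, adjusted p = 0.00882), EIN3 at 120 min and CTR1 at 180 min (0.70, adjusted p = 0.00176) were called higher as well. Markers moved at these times too. FAMA, a guard cell factor, was called lower at 30, 45, 60 and 120 min, and the 2 guard cell markers FAMA and KAT1 summed to 13.6 to 21.8 TPM in water and 2.43 to 3.22 TPM at 60 min. RBCS1A and RCA, of photosynthesis, were called lower at 120 and 180 min, LHCB1.3 was called lower and EXT3 higher at 180 min, and the 4 mesophyll markers summed to 12045 to 16647 TPM in water and 2600.3 to 5391 TPM at 180 min. The part of these shifts in the members' changes was not tested.

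EBF2 had the largest log2 change of any member at a flg22 time against water, a fall that was called at 30 min and at no other time. At 15 min its libraries already lay below those in water in Col-0, npr1-1 and jar1-1, and in jar1-1, at 76.1 to 122.7 against 183 to 213 TPM (log2 change -0.91, adjusted p = 0.018), that change passed with the lane block and with DESeq2 (adjusted p = 0.00301 and 0.00249). In Col-0 its libraries measured 129, 94.9 and 126 TPM at 15 min, 12.3, 10.8 and 17.9 TPM at 30 min, and 102, 112 and 115 TPM at 45 min. The 3 libraries at 30 min lay below every other Col-0 library of the course. Against water the mean at 30 min was 12.0-fold lower, with a log2 change of -3.58 ± 0.35 (SE, adjusted p = 4.93e-14). The fall at 30 min was called in npr1-1 and jar1-1 as well. In npr1-1 the libraries at 30 min measured 10.7, 9.86 and 19.8 TPM, a log2 change of -3.46 ± 0.34 (SE, adjusted p = 8.24e-14). In jar1-1 they measured 10.5, 31.3 and 27.0 TPM, a log2 change of -3.13 ± 0.33 (SE, adjusted p = 1.17e-12). All 3 falls were called in every alternative fit. At 45 min EBF2 stood at 109 ± 49.1 TPM in npr1-1 and 169.6 ± 43.4 TPM in jar1-1, with no call against water in Col-0, npr1-1 or jar1-1 from 45 min on. Its libraries still lay wholly below those in water at 45 min in Col-0, at 120 and 180 min in npr1-1 and at 60, 120 and 180 min in jar1-1. At the other times from 45 min on they overlapped with water in these genotypes.

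In ein2-5 EBF2 stayed between 1.74 and 24.9 TPM in all 24 libraries. At 30 min it measured 8.67, 1.74 and 8.96 TPM against 9.75, 18.2 and 5.27 TPM in water, which overlapped (log2 change -0.70 ± 0.41, SE, adjusted p = 0.245). The response over all flg22 times differed between ein2-5 and Col-0 (interaction of genotype and flg22, adjusted p = 0.00317). That call was lost without replicate 1 (adjusted p = 0.566), replicate 2 (0.0210) or replicate 3 (0.152), and when only these genotypes were fitted (0.0163).

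EBF1 was called lower at 30 min too. In Col-0 it measured 76.5, 72.1 and 61.0 TPM in water and 41.2, 32.5 and 21.8 TPM at 30 min, a log2 change of -1.14 ± 0.29 (SE, adjusted p = 0.00129; lost without replicate 1, 2 or 3, adjusted p = 0.0193, 0.0139 and 0.0285, and without the filter, 0.0643). It was also called lower at 45, 60 and 120 min, calls that were lost in 3, 3 and 4 alternative fits, with the highest adjusted p of 0.084, 0.0967 and 0.136. In npr1-1 the 30 min libraries measured 26.3, 22.7 and 21.1 TPM, all below the lowest in water at 66.1 TPM (log2 change -1.54 ± 0.29, SE, adjusted p = 1.12e-05). In jar1-1 the change at 30 min was -1.39 ± 0.28 (SE, adjusted p = 5.39e-05; lost without replicate 1, adjusted p = 0.0217). In ein2-5 EBF1 was called over the course (adjusted p = 0.00776), a call lost in 5 alternative fits (highest adjusted p = 0.209, without replicate 1), with means of 85.6 ± 24.3 TPM in water and 140.02 ± 33.8 TPM at 45 min. No single time was called in ein2-5, where the 45 min libraries of 146, 171 and 104 TPM touched the range of water (94.9, 104 and 57.9 TPM); with the lane block that time passed (log2 change 0.72, adjusted p = 0.0059). The response of EBF1 differed between ein2-5 and Col-0 (interaction, adjusted p = 0.000115), a call lost without replicate 1 (adjusted p = 0.209) and without replicate 2 (0.0264).

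EBF1 and EBF2 were the 2 members called in the interaction of ein2-5 and flg22, against 1.54% of all sense genes. In the interactions of npr1-1 and of jar1-1 with flg22 no member was called and the background was 0% in each. All members were above 0.05 there before adjustment, and none passed with DESeq2.

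**Figure D3:**
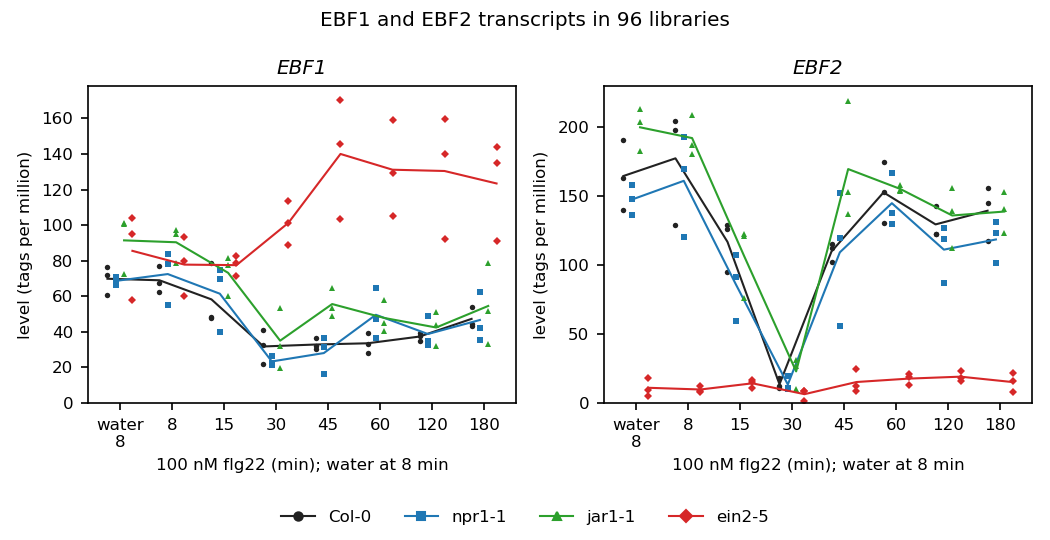
Levels of EBF1 and EBF2 in TPM (y axis) by condition (x axis, equally spaced and not to scale); points are libraries and lines join means of 3. EBF2 dips at 30 min to between 9.86 and 31.3 in Col-0, npr1-1 and jar1-1 and stays below 25 in ein2-5, while EBF1 separates ein2-5 from Col-0 from 30 min on.

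EIN2, on which all later steps depend, was called lower at 45 and 60 min in Col-0, npr1-1 and jar1-1, and no test compared its timing with that of the F-box genes. EIN2 was also called lower at 120 min in npr1-1 (log2 change -1.75, adjusted p = 0.000392, lost in 1 alternative fit). The same held in jar1-1 (-1.78, adjusted p = 0.000168, lost in 2 alternative fits). Its libraries already lay below those in water at 15 min in jar1-1, at 16.8 to 20.1 against 28.6 to 30.0 TPM, and at 30 min in npr1-1, at 8.86 to 14.4 against 18.9 to 26.4 TPM, with no call. In Col-0 it measured 23.3, 24.5 and 11.3 TPM in water, 5.39, 2.67 and 6.13 TPM at 45 min and 8.04, 3.44 and 3.23 TPM at 60 min. The log2 changes were -2.09 ± 0.47 and -1.99 ± 0.44 (SE, adjusted p = 0.000193 and 0.000127). The first was lost without replicate 2, adjusted p = 0.0275, and the second was lost without replicate 2, adjusted p = 0.014. At 180 min it stood at 10.6, 15.2 and 24.1 TPM, higher than at 60 min with no overlap (log2 change 1.72 ± 0.47, SE, adjusted p = 0.00377; lost in 3 alternative fits). In npr1-1 the mean at 60 min was 7.49-fold lower than in water (log2 change -2.89 ± 0.46, SE, adjusted p = 2.10e-07), and in jar1-1 9.29-fold lower (-3.20 ± 0.45, SE, adjusted p = 1.01e-08). Both rose again from 60 to 180 min, by 2.12 ± 0.49 in npr1-1 and 2.66 ± 0.48 in jar1-1 on the log2 scale (SE, adjusted p = 0.000608 and 9.87e-06; the npr1-1 call was lost without replicate 2 or 3, adjusted p = 0.0277 and 0.0119). In ein2-5 the transcript held 4 tags at 45 min against 24 in water, and the change missed the threshold (adjusted p = 0.0164).

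From 60 to 180 min, 2 members were called in Col-0, EIN2 and ERS2 (background 17.5%), 2 in npr1-1, EIN2 and ERS1 (17.2%), 1 in jar1-1, EIN2 (19.5%), and 0 in ein2-5 (15.6%), where no member had an unadjusted p under 0.05. All of these calls were increases. EIN3 in jar1-1 was lower at 180 than at 60 min (log2 change -0.82, adjusted p = 0.0232) and passed in 3 alternative fits, with the lane block (adjusted p = 0.000357), with DESeq2 and without replicate 3. ERS1 in jar1-1 passed as an increase with the lane block (adjusted p = 0.00213).

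ETR2 was called lower at 45 and 60 min in Col-0. It measured 9.77, 8.37 and 6.03 TPM in Col-0 in water, 2.16, 0.889 and 0 TPM at 45 min (3 tags in all; adjusted p = 0.00119; lost without replicate 1, 2 or 3, adjusted p = 0.0172, 0.0132 and 0.0265) and 4.02, 0.859 and 1.62 TPM at 60 min (adjusted p = 0.00889). At 180 min it was at 7.71, 7.58 and 6.03 TPM, which overlaps with water. In npr1-1 it was called lower at 30 min (2.67, 3.03 and 0.682 against 9.65, 4.52 and 12.3 TPM, adjusted p = 0.00345; lost in 3 alternative fits). Over all times in npr1-1 ETR2 had an adjusted p of 0.0110, and 0.0034 with the lane block. Each of the 2 Col-0 calls was lost in 4 alternative fits. ERS2 was called lower at 45 min in jar1-1, where it held 2 tags against 36 in water (adjusted p = 0.00557, lost in 6 alternative fits). In Col-0 it held 3 tags at 60 min and 25 at 180 min, or 8.67, 10.8 and 7.24 TPM (180 against 60 min, adjusted p = 0.00075; lost in 2 alternative fits).

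ERS1 had its lowest mean at 60 min in Col-0, npr1-1 and jar1-1. In jar1-1 it measured 45.9, 48.6 and 37.7 TPM in water and 17.5, 23.6 and 17.2 TPM at 60 min (log2 change -1.18 ± 0.36, SE, adjusted p = 0.00434; lost without replicate 1, 2 or 3, adjusted p = 0.0533, 0.0138 and 0.0554). At that time the phloem marker SUC2 was also lower in jar1-1, at 28.1 against 68.2 TPM (adjusted p = 0.00823, lost in 4 alternative fits), and its part was not tested. In npr1-1 ERS1 rose from 16.6, 13.5 and 18.8 TPM at 60 min to 36.6, 63.5 and 41.6 TPM at 180 min (log2 change 1.51 ± 0.37, SE, adjusted p = 0.00107; lost without replicate 2, adjusted p = 0.0605), and its fall from water to 60 min passed with the lane block only (-0.95, adjusted p = 0.0061). In Col-0 it stood at 28.4 ± 4.73 TPM in water and 20.4 ± 3.77 TPM at 60 min, with no call.

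EIN4 was called higher at 120 min in each genotype. In Col-0 it measured 8.14, 8.37 and 14.3 TPM in water and 23.3, 23.1 and 27.1 TPM at 120 min, a log2 change of 1.27 ± 0.36 (SE, adjusted p = 0.00246; lost in 4 alternative fits, with the highest adjusted p of 0.0487 without replicate 2). At 120 min the log2 change was 1.62 ± 0.36 in npr1-1 (SE, adjusted p = 0.000117), 1.56 ± 0.36 in jar1-1 (SE, adjusted p = 0.000177) and 1.23 ± 0.37 in ein2-5 (SE, adjusted p = 0.00666). The npr1-1 call was lost without replicate 2 (adjusted p = 0.0241), and the ein2-5 call in 4 alternative fits (highest adjusted p = 0.0776, without replicate 3). In none of the 4 did the libraries at 120 min overlap with those in water. At 180 min EIN4 was called higher in npr1-1, jar1-1 and ein2-5 (adjusted p = 7.19e-05, 0.000581 and 0.00768, lost in 1, 2 and 4 alternative fits). By 60 min it was already called higher in jar1-1 (log2 change 1.18, adjusted p = 0.00384, lost in 4 alternative fits). In ein2-5 it was called at 60 min too, at 18.1, 19.8 and 17.1 TPM against 8.45, 5.61 and 7.02 TPM (adjusted p = 0.00213, lost without replicate 2 or 3, adjusted p = 0.0737 and 0.0165). In the same comparison the guard cell marker FAMA (0.735 against 5.66 TPM) and the epidermal marker ATML1 (1.47 against 9.22 TPM) were called lower, and their part was not tested. ETR1 rose at the same times in Col-0, to 24.5, 23.1 and 19.7 TPM at 120 min from 11.9, 2.58 and 9.79 TPM in water (log2 change 1.45 ± 0.41, SE, adjusted p = 0.00263; lost without replicate 2, adjusted p = 0.102). At 180 min ETR1 was called too (lost without replicate 2 or 3, adjusted p = 0.0198 and 0.0493), but its libraries of 22.2, 10.8 and 35.0 TPM overlapped with water. These ETR1 changes were not called under scaling by total tags (adjusted p = 0.0178 and 0.0119). ETR1 was also called higher at 60 min in npr1-1 (log2 change 1.13, adjusted p = 0.00859) and at 45 and 180 min in jar1-1 (1.27 and 1.21, adjusted p = 0.00516 and 0.00558). Each of these calls was lost in 5 alternative fits. In ein2-5 ETR1 was not called over the course (adjusted p = 0.105), although its libraries at 60 and 180 min lay above those in water. Whether the ETR1 response of ein2-5 differed from that of Col-0 was tested by the interaction, which gave no call.

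CTR1 rose at 120 min in 3 genotypes: by 0.77 ± 0.23 in Col-0, 0.84 ± 0.22 in npr1-1 and 0.95 ± 0.23 in ein2-5 on the log2 scale (SE, adjusted p = 0.00402, 0.00116 and 0.00102). In Col-0 this took it from 48.8, 32.2 and 52.7 to 60.6, 82.7 and 85.1 TPM, and the call was lost in 5 alternative fits, among them that without replicate 2 (adjusted p = 0.146) and scaling by total tags (0.0975). The npr1-1 call was lost in 4 alternative fits (highest adjusted p = 0.0407) and the ein2-5 call in 2 (highest 0.0622, without replicate 2). In ein2-5 it went from 27.96, 22.4 and 29.3 to 40.0, 61.3 and 53.3 TPM. The only call of EIN3 against water was at 60 min in jar1-1, where 2 of 3 libraries were high, at 399 and 468 TPM, and the third, at 179 TPM, lay within the water range of 142 to 184 TPM (log2 change 1.07 ± 0.28, SE, adjusted p = 0.00115; lost without replicate 1 or 2, adjusted p = 0.0124 and 0.0849). With the lane block EIN3 passed over all times in Col-0 (adjusted p = 0.00107), npr1-1 (0.000373) and jar1-1 (9.31e-06), but not in ein2-5. The blocked log2 change at 120 min was 0.64 in Col-0, 0.59 in npr1-1 and 0.69 in jar1-1 (adjusted p = 0.00104, 0.00219 and 0.000352).

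**Figure D4:**
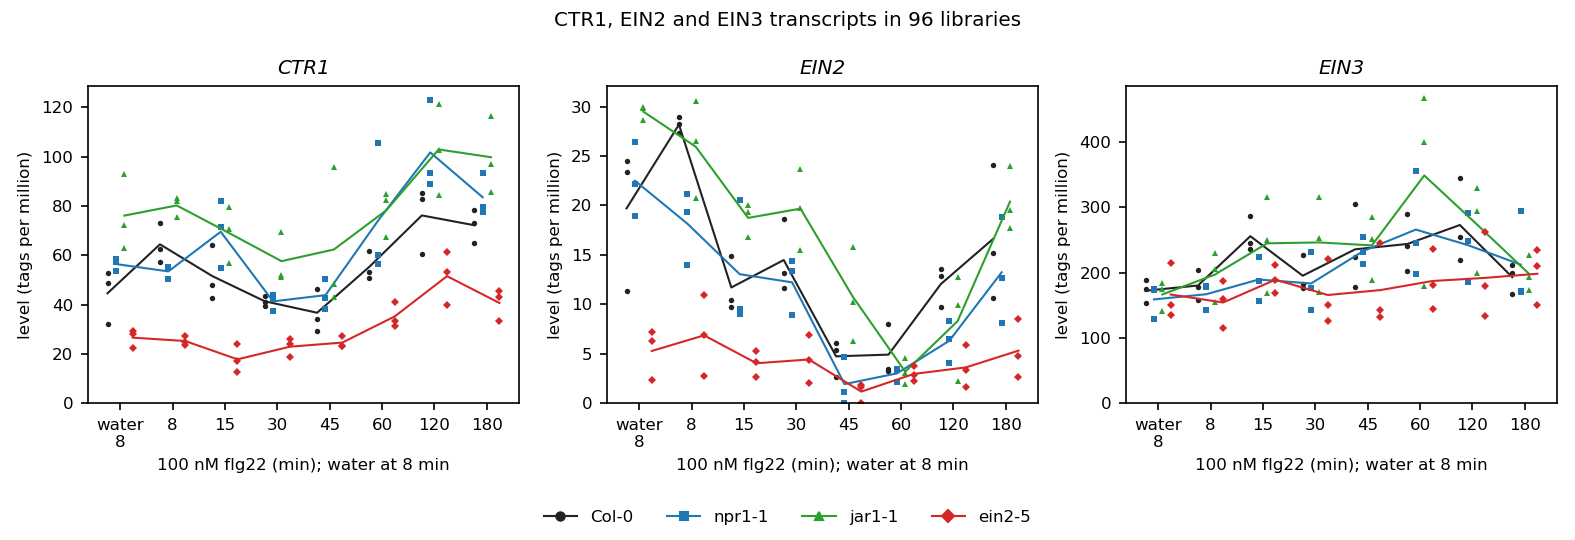
Levels of CTR1, EIN2 and EIN3 in TPM (y axis) by condition (x axis, equally spaced and not to scale); points are libraries and lines join means of 3. EIN2 lies between 0 and 15.8 at 45 and 60 min in Col-0, npr1-1 and jar1-1, against 11.3 to 30.0 in water, and in water CTR1 and EIN2 lie lower in ein2-5 than in Col-0.

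Other genes of the pathway were read from a list of 20, of which 16 were tested. In water none was called in ein2-5 against Col-0 by edgeR or DESeq2, and 1 was under 0.05 before adjustment. Their median log2 difference was 0.17. At 60 min of flg22 in Col-0, 4 of the 16 were called, where 38.9% of all sense genes were. ETP1, an F-box protein that targets EIN2 for degradation, was higher, at 37.1 ± 2.13 against 13.7 ± 2.24 TPM in water (log2 change 1.42 ± 0.27, SE, adjusted p = 1.05e-05). EIL1, the closest relative of EIN3, had 1 tag at 60 min against 65 in water, or 0.286 ± 0.496 against 14.1 ± 3.46 TPM (adjusted p = 3.96e-08). ASK2, a subunit of the ubiquitin ligases that EBF1 and EBF2 join, fell to 34.1 ± 3.29 from 75.1 ± 6.14 TPM (adjusted p = 1.27e-05), and RTE1, a regulator of ETR1, to 1.11 ± 0.962 from 7.39 ± 2.20 TPM (adjusted p = 0.00808).

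Of 15 ethylene output genes, 13 were tested. In water 8 were called in ein2-5, all lower, where 7.35% of all sense genes were called. The median log2 difference was -2.44 over the 13 against 0.05 over all sense genes. This list, like the members and the pathway list, was chosen with earlier results of these data known. Its share and median are therefore a description and not a test. The transcription factor gene RAP2.3 stood at 9.57 TPM in ein2-5 against 1422 TPM in Col-0 (log2 difference -7.20 ± 0.44, SE, adjusted p = 3.22e-22), and ARL, a growth gene, at 4.24 against 137 TPM (-4.97 ± 0.42, SE, adjusted p = 5.18e-15). The chitin-binding defence protein PR4 stood at 127 against 539 TPM (adjusted p = 8.27e-06), and the defence regulator ORA59 at 2.76 against 45.8 TPM (adjusted p = 1.54e-07). ARGOS, an organ size regulator, stood at 1.74 against 15.7 TPM (adjusted p = 2.57e-05). The defensin PDF1.2A held 3 tags against 141 (adjusted p = 0.000252), and ERF1, an early target of EIN3, 0 against 12 (adjusted p = 0.00451, lost without any 1 of the replicates). At 60 min of flg22 in Col-0, 4 of the 13 were called, against the same 38.9% of all sense genes. EDF2, a transcription factor gene, was 2.81 ± 0.29 higher on the log2 scale and ARL 1.31 ± 0.32 higher (SE, adjusted p = 2.89e-13 and 0.000494), while the log2 change was -3.11 ± 0.53 for ORA59 and -2.05 ± 0.33 for RAP2.3 (SE, adjusted p = 1.35e-06 and 4.11e-07).

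The genes whose course over the 32 group means was most like that of a member, by Pearson correlation of log2(TPM + 1), are given as a description, since the groups share genotypes and lanes. EBF2 was closest to AT5G25340 (r = 0.96) and to ARGOS (r = 0.89). AT5G25340 is the gene next to EBF2 and faces it: in TAIR10.1 it lies on the plus strand of chromosome 5 from 8793018 to 8794784, and its 3′ end overlaps by 533 bases with EBF2, which lies on the minus strand from 8794252 to 8797349. It measured 13.7 ± 2.77 TPM in Col-0 in water and 0.292 ± 0.506 TPM at 30 min, and the part of tags from the shared stretch in this likeness was not tested. ETR2 was closest to AT2G15830 (r = 0.93) and the transcription factor gene NAP (r = 0.92), ERS1 to AT4G16146 (r = 0.95) and AT5G38940 (r = 0.94), and ERS2 to PRR2 (r = 0.88) and UPB1 (r = 0.87). EIN4 was closest to AT1G74640 (r = 0.93) and AT1G70770 (r = 0.92), and ETR1 to ACS (AT5G36880, r = 0.93) and NAD-ME2 (r = 0.93). CTR1 was closest to ARGOS (r = 0.88) and AT1G36060 (r = 0.88), EIN2 to AT1G29090 (r = 0.88) and PIF3 (r = 0.87), EIN3 to WIH3 (r = 0.83) and SIP1;2 (r = 0.81), and EBF1 to HWI1 (r = 0.86) and BZIP9 (r = 0.81).

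Among the members themselves ETR2 and ERS2 were the most alike over the 32 group means (r = 0.90), and ERS1 was close to ETR2 (r = 0.90) and to ERS2 (r = 0.88), with ETR1 and EIN4 at r = 0.81. Without the 8 ein2-5 groups, ETR2 and ERS2 had r = 0.69, ERS1 and ETR2 0.37, ERS1 and ERS2 0.66, and ETR1 and EIN4 0.80 over 24 groups.

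Antisense tags were few. They made up 7.33% of the tags at EBF1 (676 tags), 4.36% at EIN4 and 0.307% at EBF2, and only those of EBF1 and EIN3 passed the filter. Antisense EBF1 was called lower in 3 of 56 single comparisons, among them 30 min in Col-0 (1.39 against 8.34 TPM in water, adjusted p = 0.00719), the time at which sense EBF1 fell; this call was lost without any 1 of the replicates.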

How the data were processed

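EXPRSS libraries, a strand-specific Tag-seq method, were sequenced on an Illumina instrument. The authors aligned the tags to TAIR10 with Bowtie 0.12.8 and deposited expected counts per locus for each sample, which are not whole where tags were shared between loci (for the members, in 26 libraries for ETR1, 18 for CTR1, 35 for EIN3 and 5 for EBF1), with antisense loci listed apart. Here the deposited expected counts were rounded to whole numbers, filtered with filterByExpr and scaled by TMM (factors 0.682 to 1.36). edgeR 4.0.16 (R 4.3.3) was fitted with 1 term for each of the 32 groups over 96 libraries (64 residual degrees of freedom), on 14569 sense and 2247 antisense features together, with Benjamini-Hochberg adjustment. Groups were read from the sample titles; 1 sample with no group was not used. The labels do not say that replicates came from separate plants, so p-values measure the spread between these samples. No 2 libraries of a group were duplicates (chi-square per degree of freedom over loci of 2.57 or more in 96 replicate pairs). An F-test joined the 7 flg22 times of a genotype, the 7 differences from Col-0, or the 7 interaction terms. The authors' own test, baySeq, was not used.

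Replicate numbers pair libraries within a genotype, since the deposited lane description puts each genotype and number in 1 lane. With group means removed, the mean correlation of lane mates was 0.338 for Col-0, 0.396 for npr1-1, 0.329 for jar1-1 and 0.591 for ein2-5, with 79 to 84 of 84 pairs above 0.1. The main fit had no term for lane or replicate. Neither lane mates nor libraries of 1 number in different genotypes (mean 0.133) were treated as pairs in it. In the alternative fit with a replicate block, comparisons of a mutant with Col-0 were blocked by the replicate number over genotypes. All other comparisons in that fit were blocked by lane.

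The members and lists were chosen with earlier results of these data known. Named list genes were those called in ein2-5 in water and, at 60 min of flg22 in Col-0, in each list, the 3 largest called changes each way. The values of 1 such gene are not reported here. Alternatives were DESeq2 1.42.0, scaling by total tags, no filter, leaving out organelle and ribosomal RNA loci, a replicate block, leaving out each replicate, fitting only the genotypes compared and, added after seeing the depths, leaving out the shallowest library. The fit was also run on simulated counts with known changes. These had the same setting of spread for all genes and no lane effects, so they do not test the calls made here.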

Additional observations from a re-analysis of the deposited data

Results flagged for a closer look

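For 3 genes among the members and lists, of 225 sense genes (1.54%) called in this test, the response to flg22 differed between ein2-5 and Col-0 by a test of the interaction of genotype and treatment over the 7 times in edgeR. The adjusted p was 0.000115 for EBF1, 0.00317 for EBF2 and 2.25e-07 for ARL. EBF1 measured 31.8 ± 9.73 TPM at 30 min in Col-0 and 101 ± 12.4 TPM in ein2-5. EBF2 measured 13.7 ± 3.72 TPM in Col-0 and 6.45 ± 4.09 TPM in ein2-5 at that time, against 165 ± 25.4 and 11.1 ± 6.59 TPM in water.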

How the results depend on the processing

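Of 118 calls on the members, 45 held in every alternative fit, and none of the calls changed direction. Among those that held were the fall of EBF2 at 30 min in Col-0, npr1-1 and jar1-1 and the lower ERS1, ETR2 and EBF2 of ein2-5 in water. Without the filter on low counts, the members called under flg22 numbered 5 in Col-0, the calls over the 28 comparisons of a flg22 time with water 24 rather than 43, and the pathway genes called at 60 min in Col-0 2. With only the genotypes compared in the fit, jar1-1 had 5 members called under flg22, the interaction of ein2-5 and flg22 had 1, the output list at 60 min in Col-0 had 8 and the antisense comparisons had 5 calls; scaling by total tags gave 6 antisense calls. DESeq2 gave 7 output genes at 60 min and 1 member in jar1-1 over the flg22 times. With the replicate block, 63 calls were made over the 28 comparisons, the output list had 8 genes, jar1-1 over the flg22 times had 1 member and the antisense comparisons had 5 calls. This block was the lane, except in comparisons of a mutant with Col-0, where it was the replicate number shared over genotypes. Leaving out a replicate gave 15 to 24 calls over the 28 comparisons, 3 to 4 members in Col-0, 5 to 6 in npr1-1, 4 to 6 in jar1-1 and 1 to 2 in ein2-5. It gave 0 to 1 in the interaction of ein2-5, 1 to 4 calls from 60 to 180 min, 20 to 23 over the 21 comparisons of a mutant with Col-0 at a flg22 time (30 with all replicates), 2 to 3 pathway genes at 60 min, 6 to 7 output genes in water and 0 to 1 antisense calls. These fits use 2 libraries a group, and the cause of the other changes was not tested. Scaling by total tags moved the median of all sense genes by up to 0.45 on the log2 scale (jar1-1 at 45 min, -0.34 against -0.79). Depth limits ETR2 and ERS2, whose groups held few tags.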
